A study of Arabidopsis thaliana with 12 samples.

Results

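Open chromatin was described at 10 genes that make, break down, sense and relay cytokinin in roots of Arabidopsis thaliana regrowing a removed tip. IPT3 (AT3G63110), IPT5 (AT5G19040) and IPT7 (AT3G23630) encode isopentenyltransferases, which start the synthesis of the hormone. CKX1 (AT2G41510) encodes a cytokinin oxidase that degrades it, AHK2 (AT5G35750), AHK3 (AT1G27320) and WOL (AT2G01830) are its 3 histidine kinase receptors, and ARR1 (AT3G16857), ARR10 (AT4G31920) and ARR12 (AT2G25180) are type-B response regulators. A region was counted for one of these genes where the authors' tables of the 14 h or 2.5 h comparison named the gene as nearest or placed the region in its exons, introns, promoter or transcript end. This rule gave 93 of the 156035 distinct regions in the series, for 10 of the 31177 genes that had any region.

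Cytokinins are adenine derivatives whose binding to a receptor kinase at the membrane sends a phosphate through shuttle proteins (AHPs) to response regulators in the nucleus. Type-B regulators are transcription factors that the phosphate activates, while type-A regulators lack a DNA-binding output and dampen the signal. In the root, cytokinin acts against auxin at the border between dividing and differentiating cells and is needed to pattern the vascular tissue.

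Accessibility was measured by ATAC-seq, where Tn5 transposase tags open DNA with adapters, in 12 libraries in 4 groups of 3, from seedlings grown on plates for 7 DAS. The uncut group was of genotype Col-0, the wild type, and its cells were sorted by DAPI, a stain of DNA, with 50000 nuclei in a library. The groups at 2.5 h, 14 h and 16 h after excision came from MP::MP-GFP plants, in which the MONOPTEROS promoter drives a fusion of this auxin response factor to GFP; about 130 µm of the tip had been cut off, about 200 µm above the cut was collected, and GFP-positive cells were sorted. A library of these groups held 1000 nuclei, except for replicate 3 at 16 h with 2000. Every comparison with uncut roots thus changes the line, the sorting and the nuclei number along with the cut, and their parts cannot be told apart; the comparisons between times share line and sort. Whether replicates were separate batches of plants is not in the labels, and p-values measure the spread between these libraries only.

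Libraries held 22.5 M to 31.8 M reads in regions in uncut roots, 1.83 M to 4.78 M at 2.5 h, 10.7 M to 17.3 M at 14 h and 1.44 M to 2.35 M at 16 h. The 2.5 h libraries stood apart: the Spearman correlation between replicates across regions was 0.277 to 0.317 there, against 0.937 to 0.957 in uncut roots, 0.556 to 0.651 at 14 h and 0.483 to 0.513 at 16 h. Regions of MP, the gene of the sort marker and of the transgene, summed to 146 ± 5.47 CPM (reads scaled to a common library size, as mean ± SD, n = 3) in uncut roots and to 366 ± 91.5, 348 ± 13.8 and 325 ± 60.8 CPM at 2.5 h, 14 h and 16 h. Of the marker lists, the 4 genes of endodermis and cortex summed to 316 to 362 CPM in uncut roots, 260 to 340 at 2.5 h, 228 to 244 at 14 h and 208 to 262 at 16 h. The 7 stele genes summed to 420 to 472, 416 to 478, 454 to 509 and 478 to 507 CPM in the same order, and the 6 epidermis genes to 309 to 344, 242 to 301, 260 to 292 and 270 to 301 CPM. The 4 root cap genes summed to 121 to 128, 84.7 to 187, 120 to 158 and 94.7 to 148 CPM, and the 6 leaf genes to 374 to 398, 307 to 447, 292 to 322 and 282 to 342 CPM. No marker gene was at 0 in any group. The part of cell composition in the gene results was not tested, and in bulk libraries a smaller number of cells with an open region cannot be told apart from less opening in each cell.

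Regions of the 10 genes lay mostly inside the genes. Exons held 57.0% of the 93 regions, against 37.9% of all regions in the authors' 14 h table, and promoters held 7.53% against 24.4%. Between the genes lay 23.7% of the regions, against 15% of all, and 13 of these 22 intergenic regions were upstream of WOL. WOL had 30 regions in all, AHK2 had 13, AHK3, ARR10 and ARR12 had 9 each, IPT7 had 8, ARR1 had 6, IPT5 had 4, CKX1 had 3 and IPT3 had 2. Of the 93, 65 were in the region sets of all 4 groups, 5 were in those of uncut roots, 14 h and 16 h but not 2.5 h, and 23 were in the 14 h set alone. A region near 2 genes counted for both. The uncut and 16 h sets were the same 107842 regions. Absence from a set means that a region was not counted in that group, and does not show a low level there.

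The regions nearest the transcription start differed between the genes. For WOL it lay 30 bp upstream, for ARR1 167 bp upstream and for CKX1 312 bp upstream, while for AHK2, ARR10, IPT5, IPT7, IPT3 and AHK3 it lay 163, 179, 394, 414, 470 and 922 bp inside the gene. For ARR12 it was a stretch of 3 bp lying 697 bp upstream. The regions of WOL and ARR1 lay within the spans of these genes, so their distances are to starts inside the span. The regions nearest the start of AHK2, WOL, ARR10 and ARR12 were in the 14 h set alone and were 19, 47, 21 and 3 bp wide. Reads recovered from the authors' 14 h table put them at 0.337, 0.248, 0.225 and 0.278 CPM in uncut roots. These regions were not counted at 2.5 h or 16 h, so their levels there are not known. Being in the 14 h set alone selects regions that are high at 14 h, so these levels are a description of narrow stretches only. None of the other 6 passed the threshold at 14 h or 16 h against uncut roots. The CKX1 region passed at 2.5 h, where it had no read (edgeR adjusted p = 0.0129).

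In uncut roots, the genes were open to a like degree per length of their regions. Over the regions common to all 4 sets, it was highest for IPT3 at 75.8 ± 3.26 CPM per kb (SD, n = 3), followed by AHK3 at 62.3 ± 4.78, ARR1 at 60.4 ± 1.52, WOL at 56.2 ± 2.25, AHK2 at 56.1 ± 0.68, IPT5 at 52.8 ± 1.81, IPT7 at 50.2 ± 4.52, ARR12 at 50.1 ± 1.75, ARR10 at 49.3 ± 2.57 and CKX1 at 46.6 ± 2.28 CPM per kb. Over these regions IPT3 stood above AHK3, ARR1 above WOL and AHK2 above IPT5 by more than the sum of the pair's SDs. The other neighbours in this order differed by less. The order depended on the regions used. Over regions shared by the uncut, 14 h and 16 h sets, IPT5 at 57.0 ± 3.67 was above AHK2 at 56.1 ± 0.68 CPM per kb. ARR1 at 65.0 ± 3.73 was then above AHK3 at 62.3 ± 4.78 CPM per kb.

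**Figure D1:**
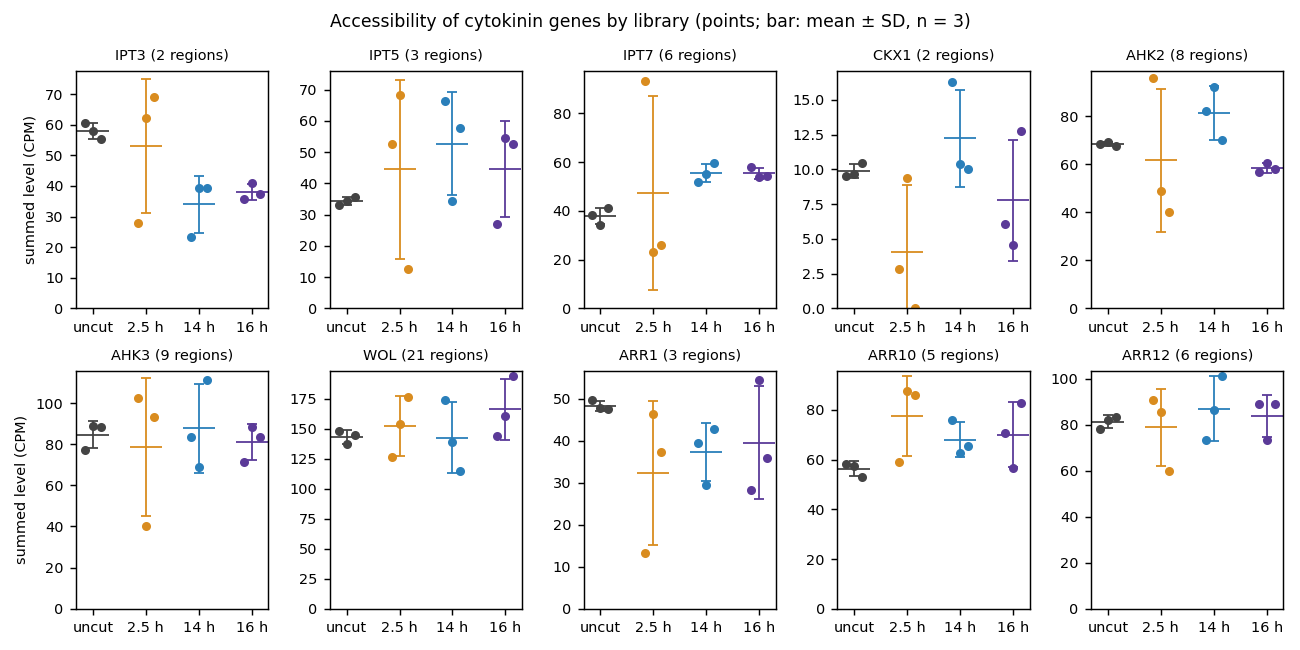
Summed accessibility in CPM of each of the 10 cytokinin genes in each of the 12 libraries, over the regions common to all 4 sets, with 1 panel per gene; points are libraries and bars the mean ± SD (n = 3). The points of IPT3 at 14 h and 16 h lie below all uncut points, those of IPT7 lie above them, and the 2.5 h points of most genes are widely spread.

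Among the synthesis genes, IPT3 and IPT7 differed from uncut roots in opposite directions at both later times. Levels are given as CPM summed over a gene's regions, and a gene or region was taken as changed where the adjusted p of edgeR's quasi-likelihood test, with Benjamini-Hochberg adjustment over all genes or regions, was under 0.05. By this test 3 of the 10 genes changed at 14 h, where 12.1% of all genes did, and 2 of 10 at 16 h, where 9.49% did. Over all genes the calls at 14 h were 1118 higher and 2525 lower, and with total counts in place of TMM scaling 2605 and 1968. Both times were compared with the same 3 uncut libraries, so the values of 14 h and 16 h are not independent.

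IPT3, an isopentenyltransferase active in phloem and responsive to nitrate, stood at 60.5, 57.9 and 55.5 CPM in the uncut libraries, at 27.9, 62.2 and 69.0 CPM at 2.5 h, at 23.4, 39.4 and 39.5 CPM at 14 h and at 35.7, 40.9 and 37.4 CPM at 16 h. All libraries of 14 h and 16 h were below all uncut libraries, while those of 2.5 h overlapped them. At 14 h it fell by 0.78 ± 0.20 on the log2 scale (SE; edgeR adjusted p = 0.0367), and at 16 h by 0.60 ± 0.14 (edgeR adjusted p = 0.0277). Both of its regions, in its exon, had negative log2 fold changes at 14 h (-0.82 and -0.71) and at 16 h (-0.77 and -0.52), and neither passed the threshold by itself. In the authors' deposited table, both regions were lower at 14 h, with log2 fold changes of -1.18 and -1.07 and adjusted p of 0.000127 and 0.000812. Without any one of the uncut libraries the call was lost, with edgeR adjusted p of 0.179, 0.141 and 0.116 at 14 h and 0.186, 0.178 and 0.136 at 16 h without replicates 1, 2 and 3. Total counts without TMM also ended the call at 14 h (log2 fold change -0.66, edgeR adjusted p = 0.0550).

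IPT7, a synthesis gene described in the endodermis of the elongating root, held 38.2, 34.4 and 41.2 CPM in uncut roots, 93.2, 23.0 and 26.1 CPM at 2.5 h, 52.1, 55.3 and 59.5 CPM at 14 h and 58.0, 54.0 and 54.1 CPM at 16 h. The libraries of 14 h and 16 h lay close together and above every uncut library, whereas 1 library of 2.5 h was high and the other two were below the uncut range. The gene rose by 0.54 ± 0.13 at 14 h (log2, SE; edgeR adjusted p = 0.0324) and by 0.54 ± 0.15 at 16 h (edgeR adjusted p = 0.0463). Of its 6 regions tested, 5 had positive log2 fold changes at 14 h and 4 at 16 h. The endodermis and cortex markers ESB1 and CO2 fell at both times, by 0.84 and 0.66 at 14 h and 0.95 and 0.73 at 16 h on the log2 scale, and their part in the values of IPT7 was not tested.

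A region 4306 bp upstream of IPT7 carried the clearest difference at this gene (chromosome 3, 8484330 to 8484449, build TAIR10, intergenic). It read 4.78, 5.36 and 6.87 CPM in uncut roots, 9.48, 0 and 0 CPM at 2.5 h, 18.2, 11.0 and 10.02 CPM at 14 h and 12.8, 14.6 and 18.3 CPM at 16 h. Every library of 14 h and 16 h was above the uncut range. It rose at 16 h by 1.40 ± 0.30 (log2, SE; edgeR adjusted p = 0.0136), while at 14 h it stood at 1.21 ± 0.32 and did not pass (edgeR adjusted p = 0.0724). Leaving out uncut replicate 1, 2 or 3 ended the call of this region at 16 h (edgeR adjusted p = 0.147, 0.145 and 0.0741) and the calls of the gene at 14 h (0.159, 0.192 and 0.102) and at 16 h (0.223, 0.274 and 0.158), and 16 h replicate 1 did so for the gene at 16 h (0.0623). The fit restricted to regions within 1 kb of a transcription start, which drops this region, gave a log2 fold change of 0.42 for IPT7 at 14 h and 0.27 at 16 h, with edgeR adjusted p of 0.171 and 0.422.

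IPT5, known from the root cap and young lateral roots, was not called at any time. Over 4 regions in exon 2 of 2 it held 77.9, 68.5 and 74.8 CPM in uncut roots, 94.0, 71.1 and 92.8 CPM at 14 h and 61.3, 122 and 107 CPM at 16 h, and the groups overlapped. Its log2 fold change was 0.21 (95% interval -0.10 to 0.51) at 14 h and 0.39 (-0.07 to 0.86) at 16 h. With 16 h replicate 1 left out, the value at 16 h was 0.64 and passed (edgeR adjusted p = 0.0211).

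CKX1, the only degrading enzyme among the 10, had the lowest summed level. It read 9.52, 9.70 and 10.4 CPM in uncut roots, 2.82, 9.37 and 0 CPM at 2.5 h, 16.3, 10.4 and 10.02 CPM at 14 h and 6.07, 4.54 and 12.7 CPM at 16 h. The 3 libraries of 2.5 h were below the uncut range and those of 14 h and 16 h overlapped it. No comparison called the gene, and the 95% interval of its log2 fold change at 2.5 h ran from -3.96 to 1.45.

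**Figure D2:**
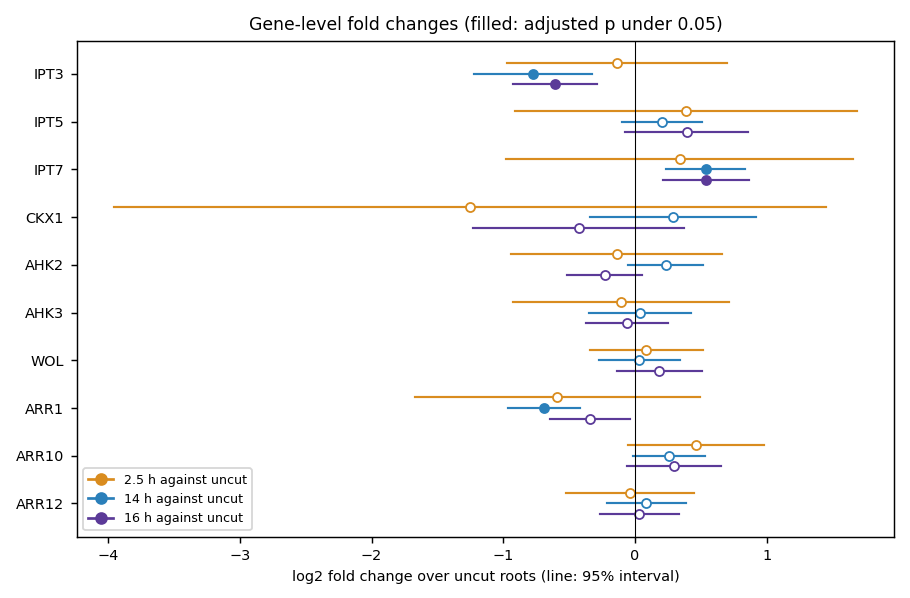
Log2 fold change over uncut roots of each of the 10 genes at 2.5 h, 14 h and 16 h, with 95% intervals from edgeR; filled points have an adjusted p under 0.05. The filled points are IPT3 below 0 and IPT7 above 0 at 14 h and 16 h, and ARR1 below 0 at 14 h; the intervals at 2.5 h are wide and all include 0.

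The 3 receptors showed no gene-level change at any time. WOL, the receptor whose loss leaves roots with xylem as the only vascular tissue, held 158, 149 and 155 CPM over 23 regions in uncut roots, 187, 159 and 132 CPM at 14 h and 159, 169 and 201 CPM at 16 h. Its log2 fold change was 0.03 at 14 h, with a 95% interval of -0.28 to 0.34, and 0.19 (-0.14 to 0.51) at 16 h. The libraries of 14 h lay on both sides of the uncut range while those of 16 h were above it, the closest at 159 CPM against 158.

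AHK3, a receptor with a known part in root meristem size and leaf ageing, stood at 77.2, 88.7 and 88.2 CPM in uncut roots, 102, 40.4 and 93.0 CPM at 2.5 h, 83.3, 68.8 and 111 CPM at 14 h and 71.4, 88.4 and 83.6 CPM at 16 h. All groups overlapped with the uncut one. Its log2 fold change was 0.04 (95% interval -0.35 to 0.43) at 14 h and -0.06 (-0.37 to 0.25) at 16 h.

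AHK2, the third receptor, held 68.5, 69.4 and 67.8 CPM in uncut roots, 95.8, 49.0 and 40.2 CPM at 2.5 h, 82.0, 92.3 and 70.1 CPM at 14 h and 56.6, 60.6 and 58.1 CPM at 16 h. The 14 h libraries were all above the uncut ones and the 16 h libraries all below, but neither difference passed, with log2 fold changes of 0.23 ± 0.13 (edgeR adjusted p = 0.251) and -0.23 ± 0.13 (edgeR adjusted p = 0.274). Its values depended on which regions were given to the gene. With the nearest-gene column alone, which leaves 3 of the 8 tested regions, in later exons and at the transcript end, to a neighbour, AHK2 passed at 14 h with 0.71 ± 0.15 (edgeR adjusted p = 0.0207). Its log2 fold change then had the opposite sign at 16 h (0.26) and at 2.5 h (0.73 in place of -0.14), though neither passed. With all regions of the 14 h table it passed at 14 h with 0.33 ± 0.10 (edgeR adjusted p = 0.0328). That fit adds the 5 AHK2 regions found in the 14 h set alone. Being in that set alone selects regions that are high at 14 h, so this pass is no separate evidence of a rise.

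By region over all 10 genes, 2 of the 70 tested at 14 h were lower and 0 higher (6% of all regions changed, 0.766% higher and 5.24% lower). At 16 h 4 of 70 changed (9.67% of all), 2 of them higher (3.12%) and 2 lower (6.55%). Without uncut replicates 1, 2 and 3 the counts were 0, 0 and 1 at 14 h and 0 each at 16 h. Of all regions, 2.71%, 2.92% and 3.06% then changed at 14 h and 3.41%, 3.64% and 3.87% at 16 h. Without 14 h replicates 1, 2 and 3 the counts were 8, 9 and 5, where 14.6%, 10.6% and 9.49% of all regions changed. Without 16 h replicates 1, 2 and 3 they were 7, 8 and 4, where 12.7%, 12.4% and 13.4% of all regions changed.

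In AHK3 the region in exon 9 of 11 (chromosome 1, 9491533 to 9491708) fell at 14 h, from 11.4, 11.5 and 11.1 CPM in uncut roots to 5.71, 4.59 and 4.58 CPM. The 14 h libraries were about level with each other and below every uncut library. The change was -1.18 ± 0.25 (log2, SE; edgeR adjusted p = 0.0353), and at 16 h the same region stood at 6.07, 10.6 and 6.37 CPM and did not pass (edgeR adjusted p = 0.329). Without uncut replicate 1, 2 or 3 its edgeR adjusted p at 14 h was 0.231, 0.238 and 0.194. The annotation puts this region nearer to the start of the neighbouring gene AT1G27330, 1229 bp upstream of it.

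A region annotated as promoter of WOL lay 610 bp upstream of a transcription start (chromosome 2, 368879 to 369056). The gene's span, 362983 to 369707, covers the region, so this start is inside the span. The region read 10.7, 11.5 and 12.2 CPM in uncut roots, 0, 14.5 and 23.2 CPM at 2.5 h, 12.4, 5.45 and 3.81 CPM at 14 h and 2.70, 4.04 and 3.18 CPM at 16 h. At 16 h all libraries were below the uncut range, at 14 h 2 of the 3 were. The region fell at 16 h by 1.77 ± 0.36 on the log2 scale (SE; edgeR adjusted p = 0.010) and did not pass at 14 h (log2 fold change -0.67, edgeR adjusted p = 0.413). Its edgeR adjusted p at 16 h was 0.0651, 0.0820 and 0.0831 without uncut replicates 1, 2 and 3.

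At the transcript end of AHK2 (chromosome 5, 13910765 to 13911038) the level was 22.3, 20.0 and 19.1 CPM in uncut roots, 15.4, 19.8 and 14.3 CPM at 14 h and 13.5, 3.53 and 7.17 CPM at 16 h. The 16 h libraries were all below the uncut ones, and the region fell by 1.41 ± 0.37 on the log2 scale (SE; edgeR adjusted p = 0.0332). This region lies 324 bp past the transcription start of the next gene, AT5G35740, which the authors' table names as nearest. The call ended without uncut replicate 1, 2 or 3 (edgeR adjusted p = 0.244, 0.196 and 0.172) or 16 h replicate 3 (0.0502), and without 16 h replicates 1 and 2 the log2 fold change was -2.04 and -0.99.

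ARR1 had the smallest gene-level p of the 10 genes. This transcription factor, a main driver of the cytokinin response in roots, held 135, 139 and 124 CPM over 5 regions in uncut roots, 93.7, 73.4 and 82.5 CPM at 14 h and 114, 107 and 94.0 CPM at 16 h. All libraries of both times were below all uncut libraries, and those of 14 h were below those of 16 h, the closest pair at 93.7 and 94.0 CPM. It fell by 0.69 ± 0.12 at 14 h (log2, SE; edgeR adjusted p = 0.00811). Its 16 h value, -0.34 ± 0.14, did not pass in edgeR (adjusted p = 0.138) and did in DESeq2 (adjusted p = 0.0230).

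The ARR1 difference lay mostly in 1 region of 1103 bp in exon 5 of 6 (chromosome 3, 5757698 to 5758800), the widest of all 93. It read 72.3, 79.8 and 67.0 CPM in uncut roots, 39.6, 40.5 and 36.3 CPM at 14 h and 75.5, 43.4 and 40.6 CPM at 16 h. The 14 h libraries were below all uncut ones, and at 16 h 1 library lay inside the uncut range. The region fell by 0.90 ± 0.14 at 14 h (log2, SE; edgeR adjusted p = 0.00928), and the authors' deposited table gives it a log2 fold change of -1.27 with an adjusted p of 1.84e-13. The other 4 regions of ARR1 also had negative log2 fold changes at 14 h, the smallest of them -0.20, and none passed. With uncut replicate 1 or 2 left out, the edgeR adjusted p at 14 h was 0.0555 or 0.0561 for the gene and 0.0645 or 0.0903 for the exon region. Restricted to regions within 1 kb of a transcription start, which drops the exon region, the log2 fold change of ARR1 was -0.39 (edgeR adjusted p = 0.402).

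ARR10 and ARR12, which act with ARR1 in roots, were not called as genes. ARR10 held 58.4, 57.5 and 52.9 CPM in uncut roots, 59.2, 87.7 and 85.9 CPM at 2.5 h, 76.1, 62.6 and 65.5 CPM at 14 h and 70.8, 56.6 and 82.8 CPM at 16 h. The libraries of 2.5 h and 14 h were all above the uncut ones, those of 16 h overlapped them. Its log2 fold change was 0.46 (95% interval -0.05 to 0.98) at 2.5 h, 0.26 (-0.02 to 0.54) at 14 h and 0.30 (-0.06 to 0.65) at 16 h. Without 16 h replicate 2 the value at 16 h was 0.44 and passed (edgeR adjusted p = 0.0412).

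ARR12 stood at 78.1, 82.2 and 83.6 CPM in uncut roots, 90.9, 85.6 and 59.9 CPM at 2.5 h, 73.4, 86.4 and 101 CPM at 14 h and 89.0, 73.2 and 89.2 CPM at 16 h, so that every group overlapped the uncut one. Its log2 fold change at 14 h was 0.09 (95% interval -0.21 to 0.39) and at 16 h 0.03 (-0.27 to 0.34). Restricted to regions within 1 kb of a transcription start, the value at 16 h was 1.29 ± 0.31 and passed (edgeR adjusted p = 0.0347). That fit left ARR12 only the exon 2 region described next, so its pass is no separate evidence for the gene. In exon 2 of 6 a region of 105 bp (chromosome 2, 10726409 to 10726513) read 4.14, 4.8 and 5.94 CPM in uncut roots, 2.31, 14.5 and 0 CPM at 2.5 h, 5.21, 7.81 and 7.07 CPM at 14 h and 10.8, 12.6 and 13.5 CPM at 16 h. The 16 h libraries were the highest apart from 1 at 2.5 h. It rose at 16 h by 1.3 ± 0.31 (log2, SE; edgeR adjusted p = 0.0235), and this call ended without uncut replicate 1, 2 or 3 (edgeR adjusted p = 0.207, 0.207 and 0.120).

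**Figure D3:**
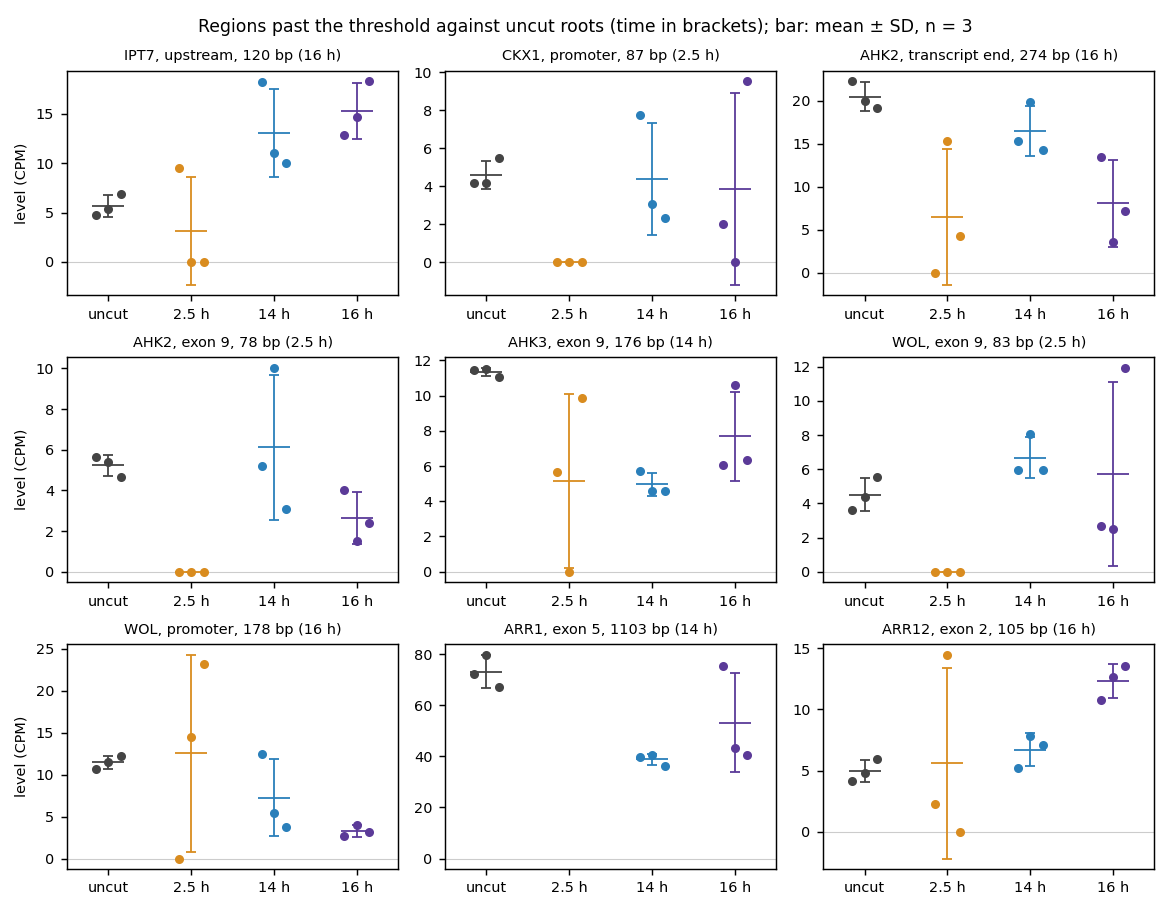
Level in CPM of the 9 regions that passed the threshold against uncut roots, by library, with the time at which each passed in brackets; points are libraries and bars the mean ± SD (n = 3). The regions of CKX1, AHK2 (exon 9) and WOL (exon 9) are at 0 in all 3 libraries of 2.5 h; the ARR1 region is not in the 2.5 h set.

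At 2.5 h, none of the 10 genes differed from uncut roots by edgeR's test, where 0.322% of all genes did. At an unadjusted p under 0.05 in edgeR the count was also 0 of 10, against 10.8% of all genes. DESeq2 called 0 of 10, where it called 8.89% of all genes. The groups did not overlap for 3 of the 10 genes (CKX1 and ARR1 lower, ARR10 higher), while 24.7% of all genes had groups that did not overlap. ARR1 held 49.7, 47.8 and 47.5 CPM in uncut roots over the 3 regions it shares with the 2.5 h set, and 13.3, 46.4 and 37.3 CPM at 2.5 h. WOL over 21 regions held 148, 137 and 145 CPM in uncut roots and 127, 154 and 177 CPM at 2.5 h. IPT5 over 3 regions went from 33.2, 34.2 and 35.6 CPM to 52.5, 68.1 and 12.7 CPM. In each of these genes the 2.5 h libraries spread over a wider range than the uncut ones.

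By region, 3 of 65 were lower at 2.5 h (7.71% of all regions were, 7.75% in either direction), and each of the 3 had no read in any 2.5 h library. They were the CKX1 promoter region (chromosome 2, 17314057 to 17314143), a region in exon 9 of 13 of AHK2 (chromosome 5, 13913711 to 13913788) and one in exon 9 of 10 of WOL (chromosome 2, 364583 to 364665). In uncut roots they read 4.18, 4.2 and 5.47 CPM, 5.65, 5.41 and 4.65 CPM, and 3.61, 4.38 and 5.53 CPM. Their edgeR adjusted p was 0.0129, 0.0148 and 0.0133. Against the 0.391 CPM that 3 counts over the pooled 2.5 h libraries would give, their uncut means were 11.8-fold, 13.4-fold and 11.5-fold higher. This pooled floor covers counting error only and not the spread between replicates. In the single 2.5 h libraries a count of 0 allows up to 0.769, 1.28 and 2.11 CPM. Regions with no read made up 26.1% to 35.1% of all regions in the 2.5 h libraries, against 4.14% to 6.13% at 16 h. Among all regions of like level in uncut roots (0.8 to 1.25 times theirs), 12%, 9.97% and 12.4% also had no read at 2.5 h, and of the 10 neighbouring regions of each of the 3, none was unread. Without uncut replicate 3 the AHK2 region no longer passed (edgeR adjusted p = 0.0505), and without 2.5 h replicates 1, 2 and 3 the number of regions that passed was 7, 7 and 10, where 17.4%, 18.2% and 15.4% of all regions did. Over the 65 regions, 46 had no read in at least 1 library of 2.5 h (60.2% of all regions) and 13 in at least 2 (25.5% of all).

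**Figure D4:**
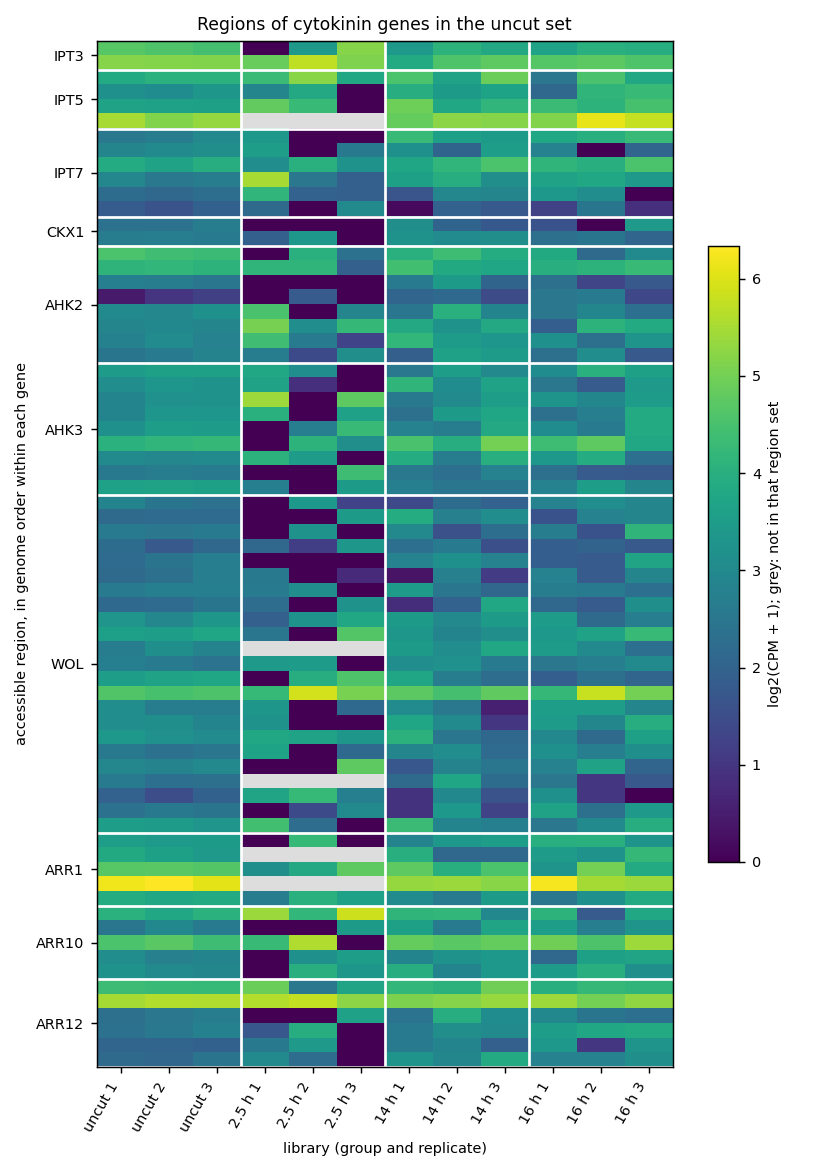
Level of the 70 regions of the uncut set in each of the 12 libraries, as log2(CPM + 1), grouped by gene and in genome order; grey marks regions that are not in the 2.5 h set. The uncut columns are even, and dark cells with no read are scattered over all genes at 2.5 h.

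Between the times after the cut, which share plant line and sort, no gene of the 10 differed. At 14 h against 2.5 h, 16 h against 2.5 h and 16 h against 14 h, edgeR called 0 of 10 in each, and 0% of all genes; at an unadjusted p under 0.05 it was also 0 of 10 in each, where 5.87%, 4.3% and 4.47% of all genes passed. DESeq2 called 0 of 10 in each of the 3 comparisons, where it called 1.72%, 0.399% and 0.00331% of all genes. The nearest to the threshold was AHK2, which at 16 h was lower than at 14 h by a log2 difference of -0.48 ± 0.23 (edgeR adjusted p = 0.999). Groups did not overlap between 14 h and 16 h for 2 of the 10 genes, AHK2 and ARR1 (10.1% of all genes). IPT3 and IPT7 differed between 16 h and 14 h by 0.16 (95% interval -0.47 to 0.78) and -0.01 (-0.51 to 0.50), and ARR1 by 0.34 (-0.10 to 0.77). By region, edgeR called 0 of 63, 0 of 48 and 0 of 70 in these comparisons (0%, 0% and 0.00104% of all regions). At an unadjusted p under 0.05 in edgeR the counts were 3, 0 and 0 (5.12%, 2.28% and 3.33% of all). DESeq2 called 1, 0 and 0 regions (1.48%, 0.71% and 0.00197% of all).

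The median log2 fold change of the 10 genes was -0.07 at 2.5 h, 0.15 at 14 h and -0.01 at 16 h against uncut roots, beside 0.00, 0.03 and 0.03 over all genes tested. Groups did not overlap with uncut roots for 5 of the 10 at 14 h (38% of all genes) and for 5 of 10 at 16 h (33.3% of all).

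The 23 regions found in the 14 h set alone lay in 7 of the genes: 7 at WOL, 5 at AHK2, 4 at ARR10, 3 at ARR12, 2 at IPT7 and 1 each at CKX1 and ARR1. They made up 24.7% of the 93, and such regions made up 25.7% of the 14 h set. They were narrow, with a median width of 30 bp against 134.5 bp for the shared regions of these genes; over the whole series such regions had a median of 48 bp, against 117 bp for the 14 h set. In 20 cases no uncut region overlapped them, and 3 overlapped one with other boundaries. Reads recovered from the authors' 14 h table gave these regions a mean of 0.225 to 8.06 CPM in uncut roots, with a median of 0.819, and 3.32 to 13.7 CPM with a median of 6.34 at 14 h. Being in the set of a single group selects regions that are high there, so these values are a description.

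The authors' deposited table of 14 h counts 29 of the 93 regions as different from uncut roots at an adjusted p under 0.05 (34.4% of all its regions), 19 of them higher (19.9%) and 10 lower (14.5%). Of the 19 higher ones in the authors' deposited table, 18 were regions of the 14 h set alone and 1 was among the other 70, whereas all 10 lower ones were among the 70. By gene, this table has 7 higher and 2 lower regions at WOL, 4 and 1 at AHK2 and at ARR12, 2 and 0 at ARR10, 1 and 2 at ARR1, 1 and 0 at IPT7, and 0 higher with 2 lower at IPT3, 1 at IPT5 and 1 at AHK3.

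**Figure D5:**
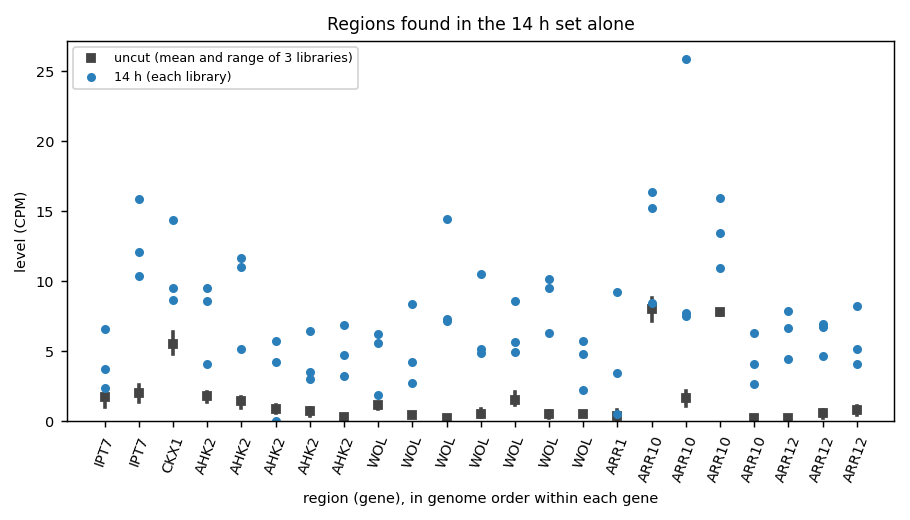
Level in CPM of the 23 regions found in the 14 h set alone, each labelled by its gene: squares with lines show the mean and range of the 3 uncut libraries, from reads recovered from the authors' table, and points the 3 libraries of 14 h. Uncut levels are mostly near 1 CPM, and 2 regions of ARR10 and 1 of CKX1 stand higher in uncut roots.

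Other genes of the pathway were counted as a list of 52, from synthesis to response factors. At 14 h, 7 of the 50 tested were higher than in uncut roots and 0 lower, where 3.7% and 8.36% of all genes were. At 16 h, 3 of 50 were higher and 0 lower (3.17% and 6.32% of all genes), and at 2.5 h 0 of 48 passed (DESeq2 called 4, all higher, and 8.89% of all genes). The median log2 fold change over the list was 0.13 at 14 h and 0.17 at 16 h. Without any one of the 3 uncut libraries, 0 of the 50 passed at either time. Of all genes, 3.23% to 4.39% then passed at 14 h and 2.11% to 2.6% at 16 h. With 14 h replicate 1 left out, 13 higher and 3 lower passed at 14 h, where 22% of all genes did. Without 16 h replicates 1, 2 and 3, the counts at 16 h were 7 higher and 0 lower, 5 and 3, and 6 and 1, where 12.9%, 17.3% and 15% of all genes passed.

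The LOG enzymes, which release active cytokinin bases from their nucleotides, made up 3 of the 7 at 14 h. LOG4 went from 16.2 to 18.4 CPM in uncut roots to 28.6 to 32.5 CPM at 14 h and rose by 0.80 ± 0.17 (log2, SE; edgeR adjusted p = 0.0183). LOG8 rose by 0.49 ± 0.12 and LOG7 by 0.73 ± 0.19 (log2, SE; edgeR adjusted p = 0.0361 and 0.0367). In all 3, every 14 h library was above every uncut one, and the remaining 4 LOG genes did not pass.

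Cytokinin response factors, AP2-type transcription factors of the hormone response, made up another 3. CRF3 held 38.7 to 42.0 CPM in uncut roots, 59.7 to 70.9 CPM at 14 h and 58.9 to 76.8 CPM at 16 h, with log2 fold changes of 0.65 ± 0.12 (edgeR adjusted p = 0.0118) and 0.70 ± 0.15 (edgeR adjusted p = 0.0178). CRF4 rose at 14 h by 0.61 ± 0.15 (edgeR adjusted p = 0.0358), and CRF2 was the third. Of the type-A regulators, 1 of 9 tested passed at 14 h: ARR9 rose by 0.61 ± 0.15 (edgeR adjusted p = 0.0332).

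At 16 h the other two were IPT2, which attaches the isopentenyl group to tRNA, and the type-B regulator ARR14. IPT2 went from 35.4 to 36.4 CPM in uncut roots to 47.8 to 56.6 CPM at 16 h (log2 fold change 0.56 ± 0.14, edgeR adjusted p = 0.0392). ARR14 went from 27.3 to 29.5 CPM to 37.4 to 55.9 CPM (0.71 ± 0.18, edgeR adjusted p = 0.0319). None of the AHP phosphotransfer genes, the other CKX genes or the trans-zeatin hydroxylases CYP735A1 and CYP735A2 passed at any time.

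The genes whose level most resembled that of IPT3 over the 12 libraries were AT1G47610 and AT4G20362, with Pearson r of 0.960 and 0.956 on log2(CPM + 1). For IPT7 they were XPO1A (0.980) and ABCA8 (0.967), and for ARR1 they were RMA2 (0.970) and NHL1 (0.963). The 12 points share the 4 groups, their depths and their scaling, and 30086 genes were compared, so these are the extremes of many values.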

How the data were processed

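ATAC-seq counts of 12 libraries were used. Each count file holds raw read counts per region as deposited by the authors, in whole numbers. The submitters' processing notes list the tools Bowtie2, SAMtools, MACS2, DESeq2 and HOMER with the build TAIR10, and no settings. Per the file headers, the authors' tables add a normalized signal per library, a log2 fold change, a p-value with its adjusted form, and a distance to the nearest start. In the 14 h table, 100% of signal values came out as whole reads after division by the library's smallest positive value, taken as 1 read (tolerance 0.01). The reads recovered for the 14 h libraries equalled their counts. Those of the uncut libraries were not compared with counts and rest on that assumption. Read duplicates may be counted, so floors of 3 counts cover counting error only.

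Comparisons used regions of identical coordinates in both groups. Counts per region and summed per gene were tested in edgeR 4.0.16 (R 4.3.3) on the 6 libraries of a comparison, by its quasi-likelihood F test after TMM scaling and filterByExpr, with p adjusted over all features by Benjamini-Hochberg. A region counted for its nearest gene and for the gene in its annotation. Of the member genes all 10 passed the filter in every comparison; of the 65 or 70 regions shared by 2 groups, all passed against uncut roots. Levels in CPM use reads in the 99054 regions common to all sets, scaled by TMM. Standard errors were taken from the F statistic.

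A fitted fold change of a region with no read depends on the prior count and is not given. Alternatives were DESeq2 1.42.0, its size factors in edgeR, total counts without TMM, TMM from chromosomes 3 and 5, unfiltered counts, a block for the replicate number, a fit to all 12 libraries, leaving out each library, regions within 1 kb of a start and, at 14 h, all regions of the 14 h table with recovered reads. Giving regions by the nearest-gene column alone, and all alternatives for the other pathway genes, were added after seeing the data. The test was checked on simulated counts with set changes and a single dispersion for all libraries. That check does not cover unequal spread between groups, as at 2.5 h, or changes as small as those of the member genes. The 16 h table's gene columns were not used here.

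The members, lists and the rule for named genes were chosen with earlier results of these data known. The rule names all 10 members, each region that passed, the region nearest each start, the 5 regions on each side of one with no read, the 2 most similar genes of each member that passed, and up to 6 passing pathway genes per comparison by p. CRF2, the seventh at 14 h, was named after its value was seen. Sequences of the regions were not analysed here.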

Additional observations from a re-analysis of the deposited data

How the results depend on the processing

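None of the 14 calls of member genes and regions changed sign under any alternative run, but those at 14 h and 16 h were lost without any 1 uncut library, except that ARR1 and its exon 5 region at 14 h still passed without uncut replicate 3 (edgeR adjusted p = 0.0284 and 0.0423). Leaving out 1 library gave 0 to 3 member genes and 0 to 9 regions at 14 h. Of all genes and regions, 3.23% to 22% and 2.71% to 14.6% then passed. At 16 h it gave 0 to 3 genes and 0 to 8 regions (2.11% to 17.3% and 3.41% to 13.4% of all). At 2.5 h it gave 0 genes and 2 to 10 regions (0% to 6.42% and 3.34% to 18.2% of all). Of the other pathway genes 0 to 5 passed at 2.5 h, 0 to 16 at 14 h and 0 to 8 at 16 h. The cause was not tested.

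With all 12 libraries in the fit, 0 member genes and 0 regions passed against uncut roots at 14 h and at 16 h. Of all genes 1.56% and 0.788% passed, and of all regions 2.33% and 1.51%. Other pathway genes passing at 2.5 h, 14 h and 16 h were 1, 0 and 0 (2.09%, 1.56% and 0.788% of all genes). Between times, 2 regions passed at 14 h and 2 at 16 h against 2.5 h (4.55% and 4.21% of all). For ARR1 this fit drops the exon 5 region, which is not in the 2.5 h set. DESeq2 called 12 member regions at 14 h (6 higher, 6 lower, and 18.8% of all regions), 9 at 16 h (5 higher, 4 lower, and 17.4% of all) and 1 for 14 h against 2.5 h (1.48% of all). It called 4 other pathway genes at 2.5 h (all higher), 13 at 14 h (10 higher, 3 lower) and 10 at 16 h (9 higher, 1 lower), beside 8.89%, 20.1% and 19.8% of all genes. Regions within 1 kb of a start gave 0 member genes at 14 h, 1 at 16 h (ARR12, by its exon 2 region alone) and 4 other pathway genes at 14 h. Of all genes, 5.36% passed at 14 h and 6.85% at 16 h in that fit. All regions of the 14 h table gave 25 of 93 member regions, 18 of them higher, and 15 other pathway genes. Of all regions 30.7% passed there (25855 higher, 16050 lower), and of all genes 31.6%. That fit includes regions of the 14 h set alone, which are selected as high at 14 h. TMM from chromosomes 3 and 5 gave 1 member gene at 16 h, where 9.33% of all genes passed. It shifted the all-gene median (log2) at 2.5 h to -0.31 and those of 14 h and 16 h against 2.5 h to 0.35 and 0.29. Total counts moved the median of all genes at 14 h from 0.03 to 0.15.

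Same-numbered libraries did not deviate together: the correlation of their deviations from the group means was -0.0437 to 0.0121, so the numbers were not taken as pairs. With the replicate number as a block, 0 member regions passed at 2.5 h, 1 at 14 h and 0 at 16 h. Of all regions 0%, 3.58% and 5.08% passed, so at 2.5 h no region of the series did. This fit gave 2 member genes at 14 h and 0 at 16 h, and 4 and 1 other pathway genes. Of all genes, 10.1% and 6.53% passed at 14 h and 16 h.

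Depth was lowest at 16 h and 2.5 h: a count of 0 allows up to 2.39 CPM in the shallowest 16 h library and 2.11 CPM in the shallowest at 2.5 h.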
